A study of Mus musculus with 8 samples.

Results

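Nuclear receptors are transcription factors that many lipids, bile acids, vitamins and steroid hormones switch on or off by binding to them. 10 receptors of this family that sense lipids and hormones, or are orphans of the same lipid network, are described here in sorted mouse Paneth cells (PCs), the secretory cells of the small intestinal crypt base. The rule that takes the members goes by gene symbol and uses no measured value, although the group was proposed with earlier results of these data known: Ppara, Ppard, Pparg, Rxra, Hnf4a, Hnf4g, Nr1h3, Nr3c1, Vdr and Nr5a2. All 10 were found among the 55414 gene IDs of the count table, and all 10 were among the 11929 genes with enough counts to be tested.

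The 8 RNA-seq libraries came from FACS-sorted PCs of mouse small intestine. In 4 libraries (TG 1 to TG 4) the mice carried a transgene through which PCs make diphtheria toxin, a bacterial enzyme that stops protein synthesis, and in the other 4 (WT 1 to WT 4) the mice were wild type. The series is titled as a study of cells left after depletion of mature PCs, so that the TG libraries hold the cells still sorted as PCs. The promoter that drives the transgene and the age of the mice are not given in the labels, so that the comparison is between genotypes as labelled. The study's methods state C57BL/6J mice and samples from individual animals.

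Most of these receptors act as pairs on DNA. The PPARs (Ppara, Ppard and Pparg, which bind fatty acids), the liver X receptor alpha (Nr1h3, which binds oxysterols) and the vitamin D receptor (Vdr) each pair with a retinoid X receptor (RXR). RXR alpha, the product of Rxra, is such a partner, as is RXR beta, the product of Rxrb. HNF4 alpha and gamma (Hnf4a and Hnf4g) bind DNA as pairs of HNF4 molecules and keep the absorptive genes of the intestinal epithelium active. The glucocorticoid receptor (Nr3c1) binds DNA mostly as a pair with itself. LRH-1 (Nr5a2) binds as a single molecule and is known in the gut for crypt renewal and local steroid synthesis.

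Total counts per library ranged from 13107397 to 16218434. Levels are given as TMM-scaled CPM, the counts of a gene relative to the size of its library. TMM scaling corrects for libraries dominated by a few genes. A set of 4 genes on the Y chromosome (Uty, Kdm5d, Eif2s3y and Ddx3y) had 0 counts in replicates 1 and 2 of both groups and 897 to 1564 counts in replicates 3 and 4, so that each group held 2 libraries of each kind. The 9 Paneth cell markers were present in every library, with a summed level of 224452 to 292441 CPM in TG and 212835 to 301122 CPM in WT (exact two-sided permutation test, p = 0.771), and 4 of them (Mmp7, Ang4, Mptx2 and Cd24a) were lower in TG by edgeR's quasi-likelihood test at an adjusted p below 0.05. These 4 were 44.4% of the markers, where 9.65% of all genes tested were lower at that threshold. A positive fitted log2 fold change was found in 1 of the 9, and their median was -0.40, against 0.01 over all genes tested. The share of mitochondrial counts was 1.31 ± 0.169% (SD, n = 4) in TG and 0.826 ± 0.219% (SD, n = 4) in WT.

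Of the 10 receptors, 6 were higher in TG and none was lower at an adjusted p below 0.05 in edgeR's quasi-likelihood test, which is what "called" means throughout. Over all genes tested, 17.9% were called, 8.26% as higher and 9.65% as lower in TG. The called receptors were Nr5a2, Vdr, Nr1h3, Rxra, Hnf4g and Nr3c1, with fold changes between 1.34 and 1.87. In 4 of the 10 (Rxra, Nr1h3, Vdr and Nr5a2) every TG library was above every WT library, which held for 10% of all genes tested (1193 of 11929). The median log2 fold change was 0.43 over the 10 receptors and 0.01 over all genes. Without TG 1 or without TG 2 the number called fell to 3 (Rxra, Vdr and Nr5a2), while over all genes 533 were called as higher and 550 as lower without TG 1, and 485 and 570 without TG 2, in place of 985 and 1151. When CPM was scaled by total counts alone, which moved the median of all genes to 0.12, 5 of the 10 were called, all as higher, and the share of higher genes among all calls went from 46.1% to 75.0%. In sorted bulk RNA, fewer cells of a type and less RNA per cell cannot be told apart.

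**Figure D1:**
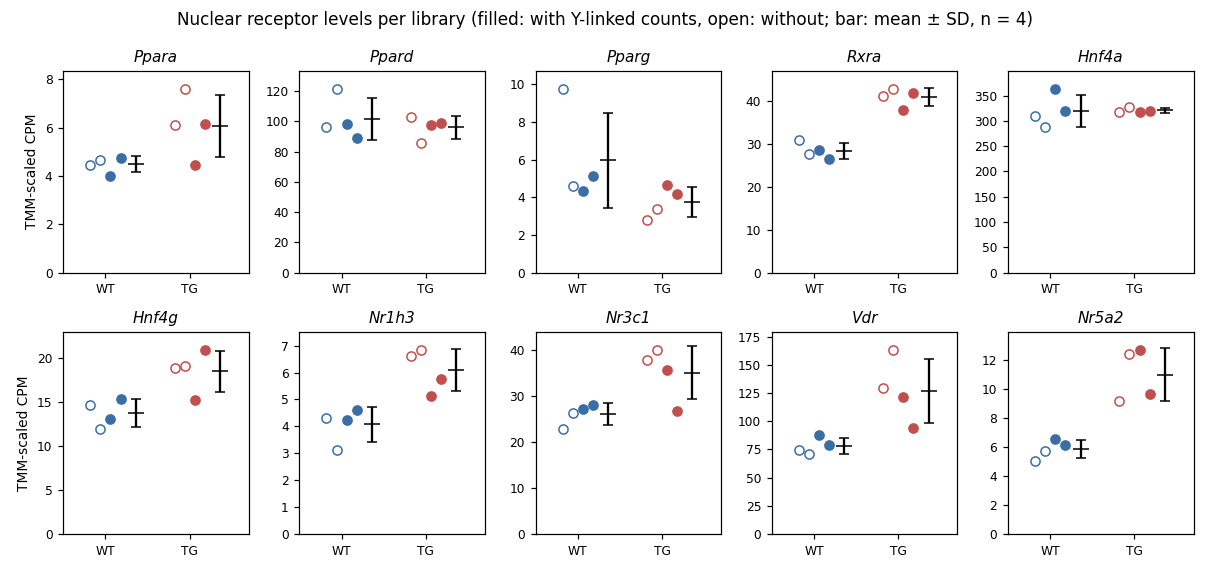
Level of each receptor in each library (vertical axis, TMM-scaled CPM from 0; blue WT, red TG; filled points are libraries with Y-linked counts, open points those without; the black bar is the group mean ± SD, n = 4). The TG and WT points are apart for Rxra, Nr1h3, Vdr and Nr5a2, and the TG points of Hnf4a lie within the spread of WT.

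Among the partners, Rxra (chr2:27566452-27653330, GRCm39, plus strand) encodes an RXR, the kind of partner that the PPARs, the liver X receptor and the vitamin D receptor need. It stood at 41.2, 42.7, 37.8 and 41.7 CPM in TG 1 to TG 4 and at 30.9, 27.6, 28.4 and 26.4 CPM in WT 1 to WT 4. All TG libraries were above all WT libraries, and the spread within each group was small. The log2 fold change was 0.53 ± 0.09 (SE), a 1.44-fold rise (edgeR, adjusted p = 0.00164). No other gene overlaps its exons. Its paralog Rxrb was at 37.7 to 38.5 CPM in TG and 31.1 to 35.6 CPM in WT and was not called (edgeR, log2 fold change 0.18 ± 0.08, adjusted p = 0.134), and Rxrg had 0 counts in every library. Per kilobase of exon, Rxra was 67.3 ± 3.30% (SD, n = 4) of Rxrb in TG and 53.3 ± 6.05% (SD, n = 4) in WT, a ratio that was not tested.

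The 3 PPAR genes differed from each other. Ppara (chr15:85618656-85687067, plus strand) encodes the PPAR that drives fatty acid oxidation during fasting. It was measured at 6.13, 7.60, 4.46 and 6.16 CPM in TG 1 to TG 4 and 4.48, 4.67, 4.02 and 4.76 CPM in WT 1 to WT 4. The TG 3 library lay within the WT range, and the gene was not called (edgeR, log2 fold change 0.44 ± 0.18, adjusted p = 0.110). It rested on 56 to 108 counts per library, and Cdpf1 on the opposite strand covers 27.4% of its exon bases.

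Ppard (chr17:28451674-28520448, plus strand), the widely expressed PPAR with known roles in intestinal stem cells and PCs, was the most abundant of the 3. It had 103, 85.4, 97.3 and 98.6 CPM in TG 1 to TG 4 and 96.4, 121, 98.3 and 89.3 CPM in WT 1 to WT 4. The groups overlapped, with a log2 fold change of -0.08 ± 0.10 (edgeR, adjusted p = 0.633). Its direction turned with total counts as the scaling (0.027) and without WT 2 (0.018), so none is read from it.

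Pparg (chr6:115337675-115468268, plus strand), best known as the regulator of fat cell formation, was low. It had 2.82, 3.38, 4.63 and 4.18 CPM in TG 1 to TG 4 and 9.75, 4.60, 4.35 and 5.14 CPM in WT 1 to WT 4. WT 1 alone was high, and TG 3 lay within the range of the other WT libraries. In the fit this was a log2 fold change of -0.66 ± 0.26 and was not called (edgeR, adjusted p = 0.0983). It was the only receptor of the 10 with a fitted fall beyond its SE.

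Vdr (chr15:97752306-97808511, minus strand) encodes the receptor for the hormonal form of vitamin D, which controls calcium uptake in the gut. It was the receptor with the widest range in TG. Its levels were 129, 163, 122 and 94.1 CPM in TG 1 to TG 4, against 74.7, 71.0, 87.9 and 79.2 CPM in WT 1 to WT 4. All TG libraries were above all WT libraries, although TG 4 was only a little above WT 3. The fitted log2 fold change was 0.70 ± 0.14, a 1.62-fold rise (edgeR, adjusted p = 0.00542).

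Nr1h3 (chr2:91014394-91033417, minus strand) encodes liver X receptor alpha, a sensor of oxidised cholesterol that turns on cholesterol export. It was at 6.63, 6.83, 5.14 and 5.78 CPM in TG 1 to TG 4 and at 4.32, 3.13, 4.22 and 4.61 CPM in WT 1 to WT 4. The groups did not overlap. The log2 fold change came to 0.58 ± 0.18, a 1.50-fold rise (edgeR, adjusted p = 0.0367). It rested on 45 to 106 counts per library, and the call was lost without TG 1, TG 2, TG 4, WT 2 or WT 3 (edgeR, adjusted p = 0.106, 0.113, 0.0527, 0.0783 and 0.0531). The widely expressed paralog Nr1h2 (liver X receptor beta) had 42.3 to 44.5 CPM in TG and 33.9 to 41.4 CPM in WT and was not called (edgeR, log2 fold change 0.21 ± 0.09, adjusted p = 0.103).

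The pair of HNF4 receptors, which bind the same DNA sites, gave different values. Hnf4a (chr2:163348728-163414830, plus strand) was at 317, 328, 318 and 320 CPM in TG 1 to TG 4 and 309, 287, 363 and 320 CPM in WT 1 to WT 4. The TG libraries lay within the WT range and close to each other. Its log2 fold change was 0.00 ± 0.09 (edgeR, adjusted p = 0.979).

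Hnf4g (chr3:3573084-3724860, plus strand) was at 18.9, 19.1, 15.3 and 20.9 CPM in TG 1 to TG 4 and at 14.7, 11.9, 13.1 and 15.3 CPM in WT 1 to WT 4. The lowest TG library (TG 3) was level with the highest WT library (WT 4), and the other TG libraries were above all of WT. In edgeR this gave a log2 fold change of 0.43 ± 0.12, a 1.35-fold rise (edgeR, adjusted p = 0.0269). The call was lost without TG 1, TG 2, TG 4, WT 2 or WT 3 (edgeR, adjusted p = 0.0719, 0.0769, 0.0690, 0.0612 and 0.0569). Per kilobase of exon, Hnf4g was 6.63 ± 0.820% (SD, n = 4) of Hnf4a in TG and 4.97 ± 0.642% (SD, n = 4) in WT, a ratio chosen after the values were seen and not tested.

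Nr3c1 (chr18:39543598-39652474, minus strand) encodes the glucocorticoid receptor. It was at 37.9, 40.0, 35.7 and 26.8 CPM in TG 1 to TG 4 and at 22.8, 26.4, 27.2 and 28.1 CPM in WT 1 to WT 4. TG 4 lay among the WT libraries, and the other TG libraries were above all of them. The change was a log2 value of 0.43 ± 0.12, a 1.34-fold rise (edgeR, adjusted p = 0.0239). The call was lost without TG 1, TG 2, TG 3 or WT 1 (edgeR, adjusted p = 0.0808, 0.0894, 0.0530 and 0.0541). The predicted gene Gm58395, on the opposite strand, covers 14.8% of its exon bases.

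Nr5a2 (chr1:136770303-136888186, minus strand), the gene of LRH-1, had the largest log2 fold change of the 10 receptors. It was at 9.20, 12.5, 12.7 and 9.66 CPM in TG 1 to TG 4 and at 5.04, 5.71, 6.56 and 6.18 CPM in WT 1 to WT 4. The lowest TG library was above the highest WT library. The log2 fold change was 0.90 ± 0.15, a 1.87-fold rise (edgeR, adjusted p = 0.00207), on 63 to 225 counts per library.

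The TG libraries were not alike over the 10 receptors. TG 2 was the highest TG library for 6 of them and TG 3 the lowest for 4. Within the libraries without Y-linked counts (2 TG against 2 WT), the log2 fold change of Vdr was 1.00, and within those with Y-linked counts it was 0.38. For Nr3c1 the values were 0.66 and 0.19, and for Pparg -1.21 and -0.10. Rxra (0.52 and 0.54) and Nr5a2 (1.00 and 0.82) were closer in both kinds of library. Of the 10 receptors, 4 were called within the former and 0 within the latter libraries (edgeR, 3 at an unadjusted p below 0.05), where 500 and 113 of all genes were called as higher. An interaction test of this difference called none of the 10 receptors (edgeR, smallest adjusted p = 0.720), against 0.0251% of all genes. Without adjustment, Vdr, Pparg and Nr3c1 were the 3 of the 10 with a p below 0.05 in it, as were 684 of all 11929 genes.

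**Figure D2:**
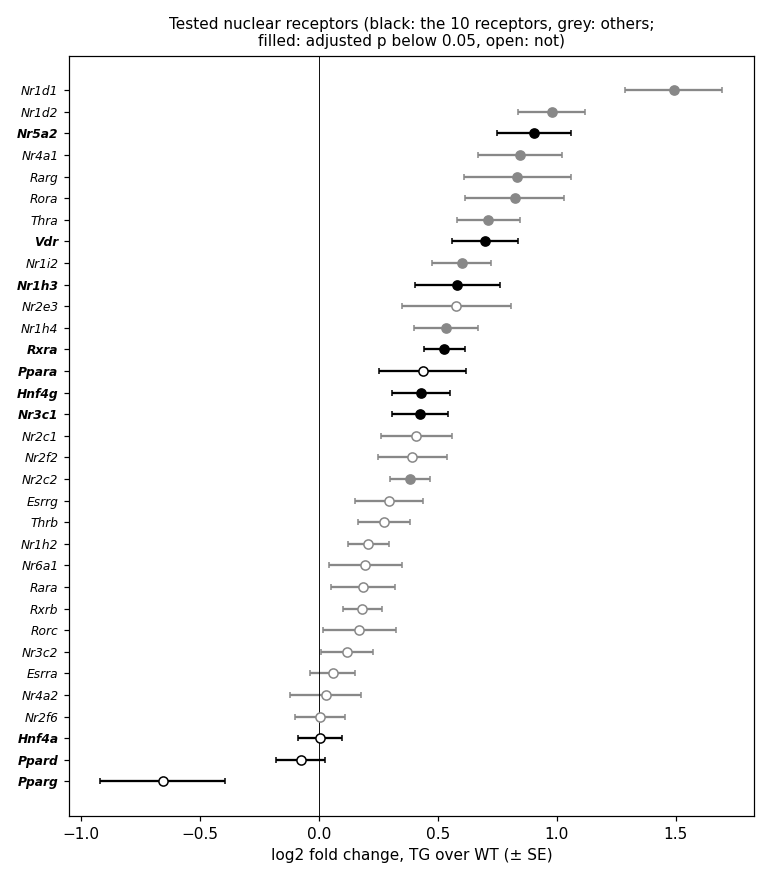
Log2 fold change of TG over WT with its SE (horizontal axis) for the 33 tested nuclear receptors, black and bold for the 10 receptors and grey for the other 23. Filled points had an adjusted p below 0.05. Pparg and Ppard are the only points on the negative side, and Nr1d1, Nr1d2 and Nr5a2 have the highest values.

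Levels can be compared between genes only per length, so CPM was divided by the kilobases of exon. In WT, Hnf4a was far above the rest at 63.5 ± 6.32 CPM per kilobase (SD, n = 4 here and in what follows). Vdr (13.6 ± 1.27) and Ppard (13.5 ± 1.85) were next and did not differ beyond their spread. Rxra followed at 4.12 ± 0.272, above Nr3c1 (3.32 ± 0.295) and Hnf4g (3.14 ± 0.353), whose values overlapped. Pparg (0.855 ± 0.366), Nr1h3 (0.804 ± 0.128), Nr5a2 (0.680 ± 0.0760) and Ppara (0.680 ± 0.0504) made up the low end, where the libraries of neighbours overlapped.

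In TG the low receptors were ordered differently, and Vdr kept its place. Vdr, at 22.1 ± 4.93 CPM per kilobase, stood apart from Ppard at 12.8 ± 0.999. Pparg was last at 0.538 ± 0.116, apart from Ppara at 0.924 ± 0.195, while Nr5a2 (1.27 ± 0.212), Nr1h3 (1.20 ± 0.155) and Ppara overlapped from neighbour to neighbour. Hnf4a was at 63.7 ± 0.937, Rxra at 5.94 ± 0.313, Nr3c1 at 4.45 ± 0.732 and Hnf4g at 4.22 ± 0.535. With the length of the longest transcript in place of all exon bases, Ppard came before Vdr in WT (27.2 against 17.9 CPM per kilobase). In TG, Vdr was then at 29.0 and Ppard at 25.8 CPM per kilobase, so that their distance depends on the length used.

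**Figure D3:**
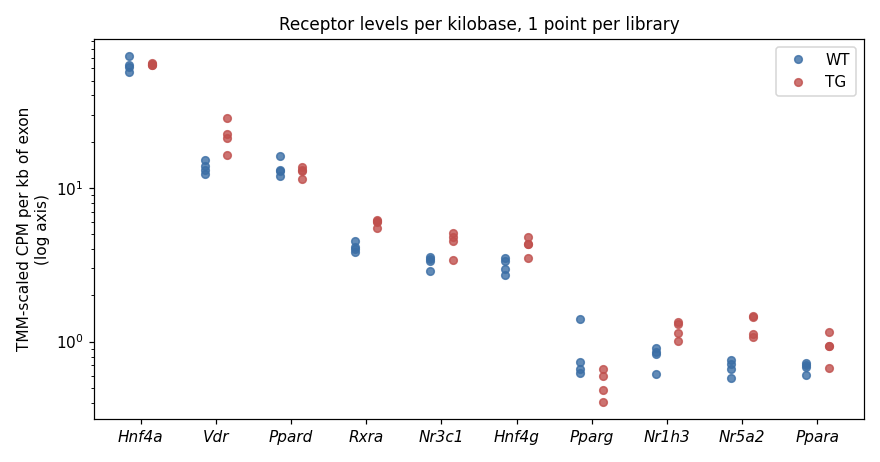
Level of each receptor per kilobase of exon (vertical axis, TMM-scaled CPM per kilobase, log scale), 1 point per library, blue for WT and red for TG, ordered by the WT mean. Hnf4a is the highest in both groups, and the TG points of Vdr lie above those of Ppard.

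The other nuclear receptors formed a list of 39 genes, of which 23 could be tested and 7 had 0 counts in every library. Of those tested, 9 (39.1%) were called as higher in TG, against 8.26% of all genes, and none was lower. All 23 had a positive fitted log2 fold change, with a median of 0.38 against 0.01 over all genes. The circadian repressors Nr1d1 and Nr1d2, which bind haem, rose most. Nr1d2 was at 44.5, 40.3, 30.6 and 46.1 CPM in TG 1 to TG 4 and at 18.1, 19.8, 18.4 and 25.6 CPM in WT 1 to WT 4 (edgeR, log2 fold change 0.98 ± 0.14, adjusted p = 0.00110). Nr1d1 had 17.2 to 33.7 CPM in TG and 7.11 to 10.2 CPM in WT (edgeR, log2 fold change 1.49 ± 0.21, adjusted p = 0.00132). It shares 52.8% of its exon bases with opposite-strand genes, among them Thra, the thyroid hormone receptor alpha, which was itself called (edgeR, log2 fold change 0.71 ± 0.13, adjusted p = 0.00335). The strand setting of the counting is not given, so the values of this pair are uncertain.

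The remaining called receptors included further sensors of lipids and foreign compounds. Nr1i2, the pregnane X receptor for drugs and bile acids, was 1.52-fold higher (edgeR, adjusted p = 0.00550), with 15.5 to 16.6 CPM in TG and 8.71 to 12.8 CPM in WT. Nr1h4, the bile acid receptor FXR, was 1.45-fold higher (edgeR, adjusted p = 0.0153), with 8.41 to 10.4 CPM in TG and 6.10 to 6.83 CPM in WT, and its call was lost without TG 1 (adjusted p = 0.0593). Both are partners of Rxra. Nr4a1, an immediate early orphan receptor, was 1.80-fold higher (edgeR, adjusted p = 0.00610), and Nr2c2, an orphan that binds repeats of the same hexamer, was 1.30-fold higher (edgeR, adjusted p = 0.00837). Rora, which activates from the sites that Nr1d1 represses, was 1.77-fold higher (edgeR, adjusted p = 0.0162) but was not called without TG 2 (adjusted p = 0.0616). The last called gene was the retinoic acid receptor Rarg, which was not called without TG 2 or TG 4.

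Coregulators carry the signal of a bound receptor to the chromatin. All 19 of a list of coactivators and corepressors were tested, 3 were higher in TG and none was lower, with a median log2 fold change of 0.14. As single libraries were left out, this median ran from 0.05 (without WT 1) to 0.21 (without WT 2). The share of coregulators called (15.8%) was below the 17.9% of all genes called in either direction and above the 8.26% called as higher. Ppargc1a, the coactivator of mitochondrial biogenesis and fatty acid oxidation that works with the PPARs, was at 2.94, 4.15, 4.18 and 4.71 CPM in TG 1 to TG 4 and 1.44, 2.23, 1.34 and 2.23 CPM in WT 1 to WT 4. The groups did not overlap (edgeR, log2 fold change 1.14 ± 0.25, adjusted p = 0.00755). The corepressor subunit Tbl1xr1 (log2 fold change 0.34 ± 0.10, edgeR adjusted p = 0.0306) and the acetyltransferase Crebbp (0.53 ± 0.16, edgeR adjusted p = 0.0423) were called, but with 1 library left out at a time the call of Tbl1xr1 was kept in 2 and that of Crebbp in 1 of 8 fits (edgeR, adjusted p up to 0.0848 and 0.116 in the rest). The coactivator Ncoa2 had a log2 fold change of 0.25 ± 0.09 and was not called (edgeR, adjusted p = 0.0743).

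Genes that PPARs are known to activate were the list with the most calls. Of 32 genes of fatty acid oxidation, other fuel use and lipid storage, 23 were tested, and 18 of these were higher in TG and none was lower. Their median log2 fold change was 0.77, against 0.01 over all genes. In 16 of the 23 the groups did not overlap, and 5 (Fabp4, Cyp4a10, Cyp4a14, Cyp4a31 and Ucp3) had 0 counts in every library. The summed level of the list was 1077, 1408, 738 and 1012 CPM in TG 1 to TG 4 and 676, 593, 594 and 658 CPM in WT 1 to WT 4. TG 2 was the highest TG library for 20 of the 23 genes and TG 3 the lowest for 19.

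Creb3l3, a liver and gut transcription factor that works with PPAR alpha, had the smallest p of the list. It was at 3.32, 4.64, 1.64 and 3.12 CPM in TG 1 to TG 4 and at 0.240, 0.00, 0.134 and 0.447 CPM in WT 1 to WT 4 (edgeR, log2 fold change 3.92 ± 0.53, adjusted p = 0.000751). Creb3l3 had 29 to 66 counts in TG and 0 to 6 counts in WT, so that it passed the filter through its TG libraries. The fold change was 15.2 and moved to 24.6 without WT 4. Cpt1a, the gate enzyme of fatty acid entry into mitochondria, was at 144, 186, 82.1 and 125 CPM in TG and at 41.2, 35.5, 44.0 and 43.2 CPM in WT, a 3.27-fold rise (edgeR, adjusted p = 0.00181). Its partner in that transport, the carnitine carrier Slc25a20, rose 2.31-fold (edgeR, adjusted p = 0.00132), and the peroxisomal thiolase Acaa1a rose 1.71-fold (edgeR, adjusted p = 0.00107). None of these groups overlapped.

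The largest fold change of the list was that of Pdk4, named here after its values were seen. Pdk4, a kinase that turns off glucose oxidation, was at 21.3, 24.6, 1.24 and 12.6 CPM in TG 1 to TG 4 and 0.320, 0.139, 0.00 and 0.372 CPM in WT 1 to WT 4 (edgeR, log2 fold change 6.16 ± 1.28, adjusted p = 0.0236). TG 3 was by far the lowest TG library, though above every WT library. Pdk4 had 22 to 350 counts in TG and 0 to 5 counts in WT, so that it passed the filter through its TG libraries. The call was lost without TG 1, TG 2 or any WT library, with edgeR adjusted p from 0.0543 to 0.0645.

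**Figure D4:**
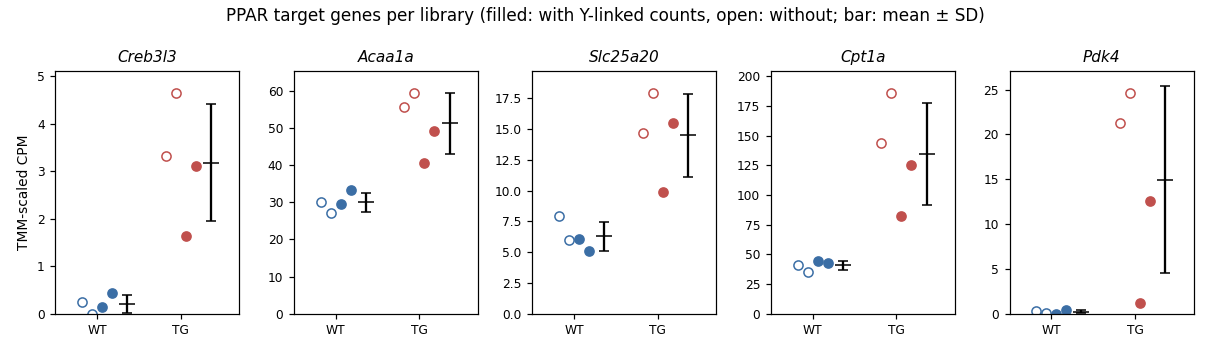
Levels of 5 genes known to be activated by PPARs in each library (vertical axis, TMM-scaled CPM from 0; blue WT, red TG; filled points are libraries with Y-linked counts, open points those without; bar, mean ± SD, n = 4). Every TG point lies above every WT point in all 5 panels, and TG 3 is the lowest TG point in each.

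PPARs with RXR, and HNF4, bind repeats of the hexamer AGGTCA, so the promoters of the listed genes were searched for it on both strands in GRCm39, from 250 bases before to 50 bases after the start of the Ensembl canonical transcript. The hexamer stood in 31.2% of the 32 PPAR target promoters, in 15.1% of 21770 protein-coding promoters, in 5 of 39 promoters of other nuclear receptors and in 1 of the 10 receptors' own promoters. In the remaining lists the share ran from none of 19 coregulators and none of 14 glucocorticoid receptor targets, through 1 of 9 Paneth cell and 1 of 8 goblet, stem and tuft cell markers each, to 4 of 11 enterocyte and 3 of 8 enteroendocrine markers. Of the 10 PPAR targets with the hexamer, 5 were called (shown here), Fabp1 and Vnn1 were not, and Fabp4, Cyp4a14 and Ucp3 had 0 counts in every library. The full paired site, AGGTCA repeated after 1 base of any kind, was in 0.0459% of all promoters and in none of these lists. A match describes letters and is not a measured binding site. The stretches below are shown because they belong to called PPAR targets and to Hnf4g, with the hexamer or its complement TGACCT in capitals, each written 5′ to 3′ on the strand of its gene.
Cpt1a (chr19:3373179-3373240, plus): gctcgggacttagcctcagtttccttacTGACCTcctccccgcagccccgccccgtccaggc
Creb3l3 (chr10:80929019-80929080, minus): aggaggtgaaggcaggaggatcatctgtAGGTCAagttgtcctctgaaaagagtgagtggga
Hadha (chr5:30360272-30360333, minus): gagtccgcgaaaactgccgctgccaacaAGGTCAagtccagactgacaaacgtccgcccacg
Acadvl (chr11:69906308-69906369, minus): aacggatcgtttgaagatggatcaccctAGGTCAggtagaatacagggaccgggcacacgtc
Plin2 (chr4:86588481-86588542, minus): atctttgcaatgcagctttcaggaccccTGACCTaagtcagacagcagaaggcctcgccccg
Hnf4g (chr3:3698962-3699023, plus): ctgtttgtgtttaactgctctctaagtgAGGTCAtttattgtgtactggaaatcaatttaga

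Of the genes behind these promoters, Hadha (mitochondrial trifunctional protein alpha) rose 1.50-fold (edgeR, adjusted p = 0.00748), Acadvl (very long chain acyl-CoA dehydrogenase) 1.26-fold (edgeR, adjusted p = 0.0333) and Plin2 (a lipid droplet coat protein) 1.71-fold (edgeR, adjusted p = 0.0162). With 1 library left out at a time, Acadvl kept its call in 2 of 8 fits (without TG 3 or TG 4), and edgeR adjusted p was at most 0.121 in the rest. Opposite-strand genes cover 31.0% of the exon bases of Hadha and 38.2% of those of Acadvl.

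Of 20 genes known to depend on HNF4 in the gut epithelium, 18 were tested, 7 were higher in TG and 1 was lower, with a median log2 fold change of 0.83. The share called was 44.4%, against 17.9% of all genes. Requiring 1 CPM in 4 libraries left 16 genes with a median of 0.44 and 6 called. Without WT 2 the number called fell from 8 to 5. Apob, the structural protein of chylomicrons, was at 29.0, 36.4, 38.5 and 35.5 CPM in TG 1 to TG 4 and 12.9, 13.8, 15.1 and 24.5 CPM in WT 1 to WT 4 (edgeR, log2 fold change 1.07 ± 0.18, adjusted p = 0.00309). Mttp, which loads lipid onto it, rose 1.51-fold (edgeR, adjusted p = 0.00570). The brush border enzyme Alpi rose more (5.90-fold, edgeR adjusted p = 0.00463) but from a low level, at most 1.79 CPM in WT. It had 37 to 113 counts in TG and 4 to 24 counts in WT, so that it passed the filter through its TG libraries. Its fold moved between 4.99 and 9.80 as single libraries were left out. The lower gene was Cdhr5, a brush border cadherin, at 357 to 440 CPM in TG and 403 to 646 CPM in WT (edgeR, log2 fold change -0.41 ± 0.13, adjusted p = 0.0393). It kept its call in 2 of 8 fits with 1 library left out (without TG 4 or WT 3), and edgeR adjusted p was at most 0.114 in the rest. The summed level of the list, which Cdhr5 and other abundant genes set, was 1521 to 1862 CPM in TG and 1563 to 1953 CPM in WT, so that it did not follow the median.

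The HNF4 motif CAAAGTCCA was in 2 of the 20 promoters of this list, against 0.450% of all 21770 promoters. It was also in 1 of 9 vitamin D receptor targets (Trpv6) and 1 of 10 LRH-1 genes (Cyp8b1), both with 0 counts in every library. The matches among the HNF4 targets belong to brush border enzymes, Alpi and Treh. Treh, which splits trehalose, had 12, 15, 44 and 23 counts in TG 1 to TG 4 and 1, 3, 4 and 10 counts in WT 1 to WT 4, so that it passed the filter through its TG libraries. It rose 4.57-fold (edgeR, adjusted p = 0.0141), with folds from 3.53 to 7.67 as single libraries were left out. The stretches are given to show the motif, in capitals, on the strand of the gene, where the promoter of Treh has the complement.
Alpi (chr1:87029329-87029375, minus): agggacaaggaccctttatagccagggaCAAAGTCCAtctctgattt
Treh (chr9:44584431-44584495, plus): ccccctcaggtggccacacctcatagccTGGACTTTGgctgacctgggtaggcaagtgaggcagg

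Markers of enterocytes, the absorptive cells of the gut, were measured beside these genes. All 11 had counts in the table, 9 were tested, 3 were called as higher (Slc5a1, Slc15a1 and Enpep) and all 9 had positive fitted values, with a median log2 fold change of 0.60. The 3 called were 33.3% of those tested, against 8.26% of all genes called as higher. Leaving out 1 library at a time, Enpep was called in 8, Slc15a1 in 3 and Slc5a1 in 2 of 8 fits. Their summed level was 437 to 531 CPM in TG and 336 to 428 CPM in WT, without overlap (exact two-sided permutation test, p = 0.0286, the smallest possible, 0.200 when adjusted over 7 marker lists). No enterocyte marker was at 0 in all libraries. Goblet cell markers were summed at 8260 to 10888 CPM in TG and 9936 to 11683 CPM in WT (exact permutation p = 0.0857), with 1 of 8 tested called as lower (Ccl9) and none as higher. This share (12.5%) was near the 9.65% of all genes called as lower. The cells had been gated by FACS, and the study's methods describe sorted PCs as almost free of other cells. That description is general, and no separate value is given there for the TG mice. The part of enterocyte RNA in the values of Hnf4g, Ppara and the HNF4 and PPAR targets was not tested.

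**Figure D5:**
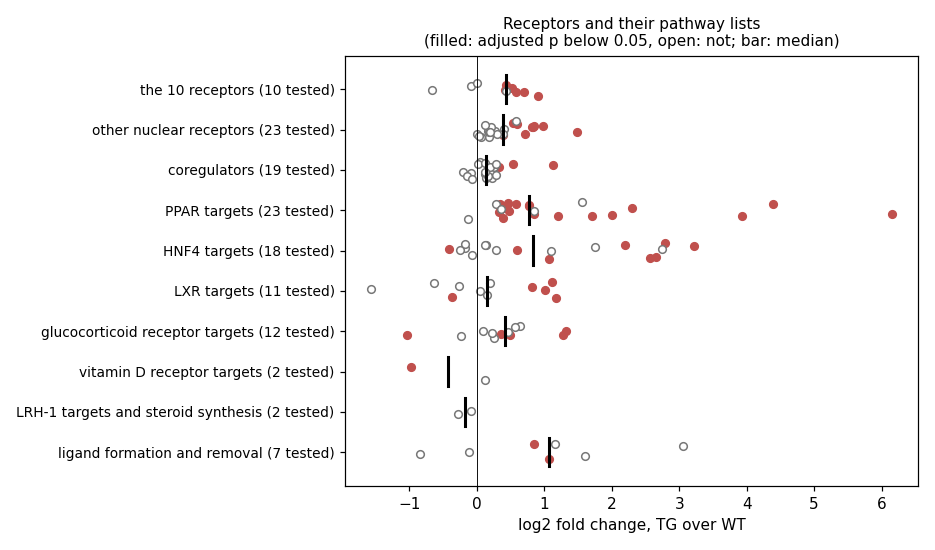
Log2 fold change of TG over WT (horizontal axis) for the tested genes of each list (1 point per gene, spread vertically only to be seen; filled where the adjusted p was below 0.05; black bar, the median of the list). The median is 0.43 for the 10 receptors and 0.77 for the PPAR targets, whose points reach 6.16.

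Of 14 known liver X receptor targets, 11 were tested, 4 were higher in TG and 1 was lower, and the median log2 fold change was 0.16. The share called was 45.5%, against 17.9% of all genes. As single libraries were left out, the median ran from 0.02 (without WT 3) to 0.22 (without WT 1). The genes called as higher export sterols or carry lipid. Another sterol exporter, Abcg1, had a negative fitted value and was not called (edgeR, log2 fold change -0.64 ± 0.31, adjusted p = 0.163). Abcg5 and Abcg8, the subunits of the sterol exporter of the gut, rose 1.76-fold (edgeR, adjusted p = 0.00608) and 2.02-fold (edgeR, adjusted p = 0.00953). Apoe, a lipid carrier, was at 10.8, 6.47, 5.25 and 5.25 CPM in TG 1 to TG 4 and at 2.14 to 3.84 CPM in WT (edgeR, log2 fold change 1.18 ± 0.26, adjusted p = 0.00755). Srebf1, the regulator of fatty acid synthesis that the liver X receptor also activates, moved the other way, with 53.4 to 62.1 CPM in TG and 61.1 to 78.3 CPM in WT (edgeR, log2 fold change -0.37 ± 0.10, adjusted p = 0.0184). That call was lost without TG 1 or TG 2 (edgeR, adjusted p = 0.0747 and 0.0616), and the list count fell from 5 to 3 without either. The summed level of this list was lower in TG (247 to 304 CPM) than in WT (296 to 415 CPM) with overlap, against the sign of its median. Scd2, a fatty acid desaturase named after its values were seen, differed by more than the whole list did, with 20.8 to 85.1 CPM in TG and 102 to 214 CPM in WT (edgeR, log2 fold change -1.56 ± 0.54, adjusted p = 0.101, not called). Within each group it was lower in the libraries without Y-linked counts, and within each kind of library it was called as lower in TG (edgeR, log2 fold change -2.06 without and -1.35 with Y-linked counts). It was also called with a term for Y-linked counts and with DESeq2.

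Of 14 known glucocorticoid receptor targets, 12 were tested, 4 were higher in TG and 1 was lower, with a median log2 fold change of 0.41. The share called was 41.7%, against 17.9% of all genes. The kinase Sgk1, which acts on sodium transport, was at 4.25, 6.75, 4.46 and 7.22 CPM in TG 1 to TG 4 and 1.44, 1.95, 2.48 and 3.35 CPM in WT 1 to WT 4 (edgeR, log2 fold change 1.29 ± 0.26, adjusted p = 0.00542). Pck1, an enzyme of glucose synthesis, rose 2.49-fold (edgeR, adjusted p = 0.00914). The metallothionein Mt1 rose 1.41-fold (edgeR, adjusted p = 0.0361), and the transcription factor Cebpd was lower (edgeR, log2 fold change -1.03 ± 0.31, adjusted p = 0.0332), with 8.39 CPM in WT 1 against 3.88 to 4.17 CPM in the other WT libraries. Mt1 was not called without TG 2, TG 3, TG 4, WT 2 or WT 4 (edgeR, adjusted p from 0.0735 to 0.0920), nor Cebpd without TG 1, TG 2, TG 3 or WT 1 (edgeR, adjusted p from 0.0642 to 0.104). Without TG 2 the list count fell from 5 to 2. Without TG 4 or WT 1 it was 3.

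Vdr was higher in TG, but few of its known targets were measured. Of 9 genes, 7 did not pass the filter, and Trpv6, Calb1 and Bglap had 0 counts in every library. Cldn2, a claudin that forms a cation channel between cells, was at 188, 159, 209 and 153 CPM in TG 1 to TG 4 and 458, 383, 268 and 283 CPM in WT 1 to WT 4, the groups being apart (edgeR, log2 fold change -0.97 ± 0.17, adjusted p = 0.00346). The calcium pump Atp2b1 was not called (edgeR, log2 fold change 0.12 ± 0.09, adjusted p = 0.381). Among those below the filter, named after their values were seen, Cyp3a11, a drug and bile acid hydroxylase, had 24, 9, 40 and 63 counts in TG 1 to TG 4 and 0, 1, 2 and 8 counts in WT 1 to WT 4, and the metal transporter Slc30a10 had 5, 2, 8 and 4 counts in TG and 0, 0, 1 and 0 counts in WT. With no filter, 3 genes of this list were called, 2 as higher and 1 as lower in TG. For LRH-1, 2 of 10 listed genes were tested, the cyclins Ccne1 (log2 fold change -0.27 ± 0.26, edgeR adjusted p = 0.487) and Ccnd1 (-0.08 ± 0.17, edgeR adjusted p = 0.784). Neither was called, and 4 steroid or bile acid enzymes (Cyp11b1, Cyp8b1, Cyp7a1 and Cyp19a1) had 0 counts in every library. The bile acid carrier Slc10a2, below the filter and named after its values were seen, had 3, 14, 11 and 40 counts in TG 1 to TG 4 and 0, 0, 2 and 0 counts in WT 1 to WT 4. With no filter, and without WT 2, 1 gene of this list was called as higher.

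Genes that make, carry or remove the ligands gave 7 tested of 16, with 2 higher and none lower. The 2 were 28.6% of those tested, against 8.26% of all genes called as higher. Cyp27a1, which forms oxysterols and takes part in bile acid synthesis, was at 8.58 to 14.0 CPM in TG and 4.62 to 6.71 CPM in WT, without overlap (edgeR, log2 fold change 0.85 ± 0.17, adjusted p = 0.00526). Opposite-strand Prkag3 covers 32.8% of its exon bases. Aldh1a1, which makes retinoic acid, rose 2.10-fold (edgeR, adjusted p = 0.0150). Rdh7, a retinol dehydrogenase (log2 fold change 1.16 ± 0.40, edgeR adjusted p = 0.0602), and Rbp2, the retinol binding protein of absorptive cells (1.60 ± 0.55, edgeR adjusted p = 0.0689), were not called. Both were called as higher with DESeq2 and with no filter, and Rbp2 also with a term for Y-linked counts, and the count of the list was then 5 with DESeq2 and 4 with no filter.

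The genes whose pattern over the 8 libraries was nearest to that of the 3 receptors with the smallest p were found by the mean absolute difference of centred log2 CPM, among 8049 genes. For Rxra they were Trpm4 (0.0637), Fgfr3 (0.0690) and Ubxn10 (0.0690), where the median gene differed by 0.295. For Vdr they were Sema7a (0.0455), Dennd1a (0.0568) and Tfdp2 (0.0845), against a median of 0.385. For Nr5a2 they were Coro2a (0.110), Lrp1 (0.118) and Lrp4 (0.119), against a median of 0.463. These genes were picked for their likeness to receptors that were higher in TG, so their own log2 fold changes, from 0.46 (Fgfr3) to 0.87 (Coro2a), follow from the choice.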

How the data were processed

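Paneth cell RNA had been isolated with a column kit and made into stranded poly(A) libraries. The authors deposited whole-number counts per Ensembl gene for 8 libraries. The submitters' processing notes name FastQC 0.12.0, STAR 2.7.0a, DESeq2 and mm39; how genes were counted, with which strand setting and with what treatment of multiply aligned reads, is not given in the sources used, so that reads of overlapping genes and paralogs may be shared. Groups and replicate numbers came from the labels. Symbols, positions and exon lengths were added from GENCODE M39 on GRCm39, which matched 54749 of 55414 IDs.

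Counts were tested with edgeR 4.0.16 in R 4.3.3 (robust quasi-likelihood fit, TMM factors, default filter by group, group as the only term, Benjamini-Hochberg adjustment over 11929 genes, threshold 0.05). SE is the absolute log2 fold change over the root of the F statistic. On simulated data for this comparison (11929 genes, 11799 tested), 82.5% of 200 genes changed by a log2 fold change of 1 were recovered with 6 false calls. Replicate libraries differed beyond counting noise (chi-square per degree of freedom at least 5.20). The samples are described as individual animals, and p-values measure the spread between these 4 libraries a group.

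Alternatives were RLE factors, total counts, DESeq2 1.42.0, no filter, at least 1 CPM in 4 or more libraries, a block on the replicate number, a term for Y-linked counts, fits within each kind of library, and leaving out each library. The receptors, gene lists, rules and tests were chosen with earlier results of these data known. Named were the 10 receptors, the called other nuclear receptors (at most 8 by smallest p), the 4 genes with the smallest p of each other list, and the 3 nearest patterns of the 3 receptors with the smallest p. Named outside this rule, after their values were seen, were Pdk4, Hadha, Acadvl, Plin2, Treh, Cdhr5, Rarg, Rxrb, Nr1h2, Cyp3a11, Slc30a10, Slc10a2, Scd2, Abcg1, Fabp1, Vnn1, the called Paneth cell, enterocyte and goblet cell markers and the genes at 0. Some genes of the lists are not reported here. Stem cell markers (2 called higher and 1 lower of 8 tested, not named, exact permutation p of the summed level 0.314), tuft (0 of 6 called, p = 0.857), enteroendocrine (0 of 3, p = 0.229) and immune markers (0 of 1, with Adgre1, Csf1r and Cd4 at 0, p = 0.371) were compared in the same way.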

Additional observations from a re-analysis of the deposited data

Results flagged for a closer look

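Of the 20 groups of 4 libraries examined (10 receptors in TG and WT), 1 held a library far from the others, and chance gives about 1 in 20. Pparg in WT 1 was at 9.75 CPM, and WT 2, WT 3 and WT 4 were at 4.60, 4.35 and 5.14 CPM. The distance to the nearest of these was 0.855 of the whole WT range, beyond Dixon's 95% critical value. Without WT 1 the log2 fold change of Pparg was -0.32 (edgeR, adjusted p = 0.326).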

How the results depend on the processing

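The calls of Rxra, Vdr and Nr5a2 were kept in 16 of 17 alternatives, all but the fit within the libraries with Y-linked counts (2 against 2), where edgeR adjusted p was 0.0554, 0.181 and 0.0799. Nr3c1 kept its call in 11, Hnf4g in 10 and Nr1h3 in 9 of 17. Pparg was called without the filter (edgeR, adjusted p = 0.0181) and in no other alternative. The log2 fold change of Ppard turned to 0.027 with total counts and 0.068 in libraries with Y-linked counts, and ran from -0.14 to 0.018 (without WT 2) as single libraries were left out. That of Hnf4a turned to -0.00095 with no filter, -0.092 in libraries with Y-linked counts, and -0.0059, -0.014 and -0.046 without TG 2, WT 1 and WT 2, and at most 0.069 (without WT 3) with 1 library left out. Ccne1 turned to 0.021 in libraries with Y-linked counts, and Ccnd1 to 0.0090 with total counts, 0.18 in libraries without Y-linked counts and ran from -0.18 to 0.16 (without WT 3) as single libraries were left out. The cause was not tested. Depth limits Ppara, Pparg and Nr1h3 most, with at most 122 counts in any library.

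Within the libraries with Y-linked counts, fewer samples were fitted, and the numbers called were 0 receptors of 10 (3 at an unadjusted p below 0.05), 2 other nuclear receptors, 0 coregulators (2 unadjusted), 3 PPAR targets, 5 HNF4 targets, 1 liver X receptor target, 0 glucocorticoid receptor targets (6 unadjusted) and 0 genes of ligand formation and removal (4 unadjusted, edgeR). Within those without Y-linked counts they were 1 coregulator, 3 liver X receptor targets and 3 glucocorticoid receptor targets. Scaled by total counts, liver X receptor targets and glucocorticoid receptor targets gave 3 each. With no filter, vitamin D receptor targets gave 3, LRH-1 targets 1 and ligand formation and removal 4, and DESeq2 gave 5 for the last. As each library was left out, the number called ran from 3 to 6 for the 10 receptors, 7 to 12 for other nuclear receptors, 1 to 3 for coregulators, 12 to 20 for PPAR targets, 5 to 7 for HNF4 targets, 3 to 5 for liver X receptor targets, 2 to 4 for glucocorticoid receptor targets, 1 to 2 for vitamin D receptor targets, 0 to 1 for LRH-1 targets and 2 to 3 for ligand formation and removal.

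The groups share replicate numbers. The deviations of same-numbered libraries from their group means correlated at 0.08, 0.07, 0.29 and 0.23, and TG 1 and TG 2 were nearest to WT 2 and WT 1, so that the numbers were not taken to pair the libraries. With a replicate block, 5 of the 10 receptors were called (Nr1h3 lost, edgeR adjusted p = 0.0522), with 15 PPAR targets in place of 18 (Plin2 among those lost), 12 HNF4 targets in place of 8 (12 also with DESeq2), 3 glucocorticoid receptor targets and 4 genes of ligand formation and removal (Rbp2 among them). Scd2 was called with the block too.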

Other observations

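The progesterone receptor Pgr was too low to be tested. It had 9, 10, 18 and 13 counts in TG 1 to TG 4 and 0 counts in every WT library. Over the group, the TG level of 0.819 CPM was at least 15.1-fold higher than 3 counts over the WT group would give (0.0543 CPM). Nr4a3, an immediate early orphan receptor, had 9, 12, 13 and 9 counts in TG and 2, 3, 2 and 3 in WT, and Nr1i3, the constitutive androstane receptor, had 16, 9, 11 and 7 counts in TG and 2, 1, 4 and 1 in WT, where Tomm40l on the opposite strand covers 75.4% of its exon bases. These 3 genes were chosen after their values were seen and were not tested.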
